A study of Mus musculus with 41 samples.

Results

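The comparison of mice ranked high in cognition with mice ranked low asked how hippocampal gene expression differed between the ends of a behavioural ranking within 1 inbred strain. Of 41 arrays in the series, 13 entered the contrast, 5 labelled as high and 8 labelled as low cognition. All mice were C57BL/6J males of 1 genetic background, and the labels name no introduced allele and no drug. They were 10 weeks old when testing began, went through the same behavioural battery up to week 38, and gave RNA from the hippocampus 1 month after the last test. The ranking rested on 11 parameters of 5 learning and memory tests, and a mouse was called high or low when 2 ranking systems agreed on it. Another 12 mice ranked medium shared the statistical fit, and their levels are given for some single genes. No agent or mutation separates the groups, so they model naturally occurring differences between mice of 1 strain, and the RNA was taken after the behaviour had been measured.

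The hippocampus encodes and stores spatial and contextual memory in a circuit of dentate granule cells, pyramidal cells and local interneurons. Memory traces are held in the strength of synapses, and their upkeep draws on local translation, on mitochondria, on chromatin regulators that set which genes respond to activity, and on the chaperones and degradation systems that keep neuronal proteins folded. A bulk sample of this tissue holds neurons, glia, vessels and whatever choroid plexus, meninges or neighbouring brain the dissection kept. In such RNA, fewer cells of a type and less RNA per cell cannot be told apart.

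Levels below are log2(intensity + 16) of 1 probe set after quantile normalization, an adjustment that gives every array the same distribution of values. Differences are high minus low on that scale, with the standard error (SE) of a limma fit, and the offset of 16 makes them understate changes of dim genes. Intensity before normalization had a median of 25.9 to 46.9 on the high and 22.4 to 47.0 on the low arrays. The dimmest array, low replicate 5, also stood apart in its mean correlation with all others, 0.975 against 0.982 to 0.988 for the other 12. The markers fixed for the tissue were present: the dentate gene Prox1 averaged 7.40 and 7.32 in high and low mice, the pyramidal gene Wfs1 9.53 and 9.60, the interneuron gene Gad1 11.74 and 11.77, and the myelin gene Mbp 13.07 and 13.09. Spike-in controls separated the arrays into 3 sets, called spike-in batches here since the labels name none. Batch 1 held 0 high and 1 low array, batch 2 held 1 and 2, and batch 3 held 4 and 5. Choroid plexus markers were bright on low replicates 1, 6 and 7 and on 0 of 5 high arrays.

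The groups differed little over the whole transcriptome. Of 22519 tested probe sets, 2 passed a limma adjusted p of 0.05, which is 0.00888%, and both were higher in high mice. Over 11218 genes, each read at its brightest probe set, the median difference was 0.0037, 51.5% of genes lay above 0, and the middle 90% lay between -0.19 and 0.18. Differences over 0.5 in size were seen in 39 genes, 5 higher and 34 lower. The median SE over all genes was 0.086, but genes with large differences could have a larger SE, such as Igf2 (-0.80 ± 0.42) and Inhba (0.69 ± 0.22). At an unadjusted limma p under 0.05, called nominal from here on, 4.81% of genes were higher and 3.73% lower. Every high array lay above every low array for 0.348% of genes, and below it for 0.241%. These shares are the background for each list that follows, and nominal members carry no correction for the number of genes tested.

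**Figure D1:**
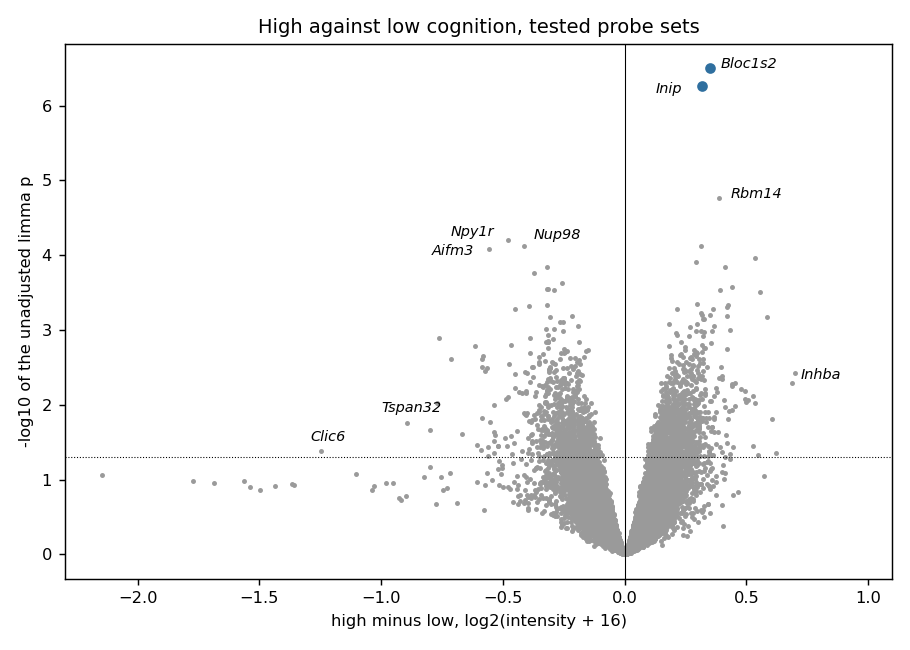
Difference between high and low mice on the log2(intensity + 16) scale (horizontal) against -log10 of the unadjusted limma p (vertical) for 22519 probe sets. Filled blue points are the 2 probe sets past the adjusted threshold, Bloc1s2 and Inip; the dotted line marks an unadjusted p of 0.05, and the long left arm at low significance holds choroid plexus markers such as Clic6.

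Bloc1s2 (probe set 1429048_at) encodes a subunit shared by 2 complexes, BLOC-1, which forms lysosome-related organelles, and BORC, which positions lysosomes along axons. Its level was 9.19, 9.34, 9.36, 9.36 and 9.20 in the 5 high mice and ran from 8.79 over a median of 8.95 to 9.04 in the 8 low mice. All high arrays lay above all low arrays, and also above all medium arrays, whose highest value was 9.10. The difference was 0.35 ± 0.05 (SE), which is 1.27-fold, and passed at an adjusted p of 0.00612 in limma. The call of Bloc1s2 was lost, with the difference still 0.315 to 0.417, when the high and low arrays were fitted without the medium arrays (adjusted p 0.236), without the choroid-bright arrays, those bright in choroid plexus markers (0.292), in the largest spike-in batch alone (0.21), after median centring (0.392), without normalization (1) and by the exact rank-sum test (0.31).

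Inip (probe set 1429242_at) encodes a small subunit of the SOSS complex, which binds single-stranded DNA and acts in the repair of DNA breaks. Its level was 6.92, 6.92, 6.95, 6.92 and 6.89 in high mice and ran from 6.47 over 6.62 to 6.71 in low mice. The high arrays were closely grouped, above every low array and above the highest medium array at 6.83. The difference was 0.32 ± 0.05 (SE) with a limma adjusted p of 0.00612. The call of Inip was lost under the same alternatives, at adjusted p-values of 0.236, 0.366, 0.238, 0.392, 1 and 0.31 in that order, and also with all 41 arrays fitted (0.104) and with a variance trend and robust fit (0.0988). The other tested Inip probe sets differed by 0.20 ± 0.08 and 0.04 ± 0.06 (SE), with overlapping groups.

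The partners of both genes are given by list. Of 26 measured BLOC-1, BORC and lysosome-related organelle genes, 3 were nominally higher (Bloc1s2, Lyst and Rab32), 0 were nominally lower, and the median difference was -0.01. Of 20 measured SOSS, Integrator and replication protein A genes, 5 were nominally higher, 0 lower, 15 lay above 0 and the median was 0.10. Inip enters that list through a brighter probe set than the one called. The 5 were the Integrator subunits Ints5 (0.23 ± 0.09, SE), Ints12 (0.18 ± 0.07) and Ints9 (0.13 ± 0.06), the single-stranded DNA-binding subunit Nabp1 (0.22 ± 0.10) and Rpa1 (0.16 ± 0.07), which coats single-stranded DNA. For Ints5, low replicate 5 lay at 9.05 and the next low array at 9.68. With each array left out its difference ran from 0.146 to 0.266, and its 1 other tested probe set had the opposite sign. Integrator cleaves and terminates nascent transcripts and shares a subunit with SOSS. The list mean per array was 8.22, 8.20, 8.27, 8.31 and 8.24 in high mice and ran from 8.12 over 8.17 to 8.22 in low mice, so that high replicate 2 lay within the low range. The count of 5 rested on single arrays: it was 2 without high replicate 3, high replicate 4 or low replicate 3, and 3 without high replicate 5, low replicate 2 or low replicate 7. Without the 3 low arrays bright in choroid plexus markers it was 2.

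**Figure D2:**
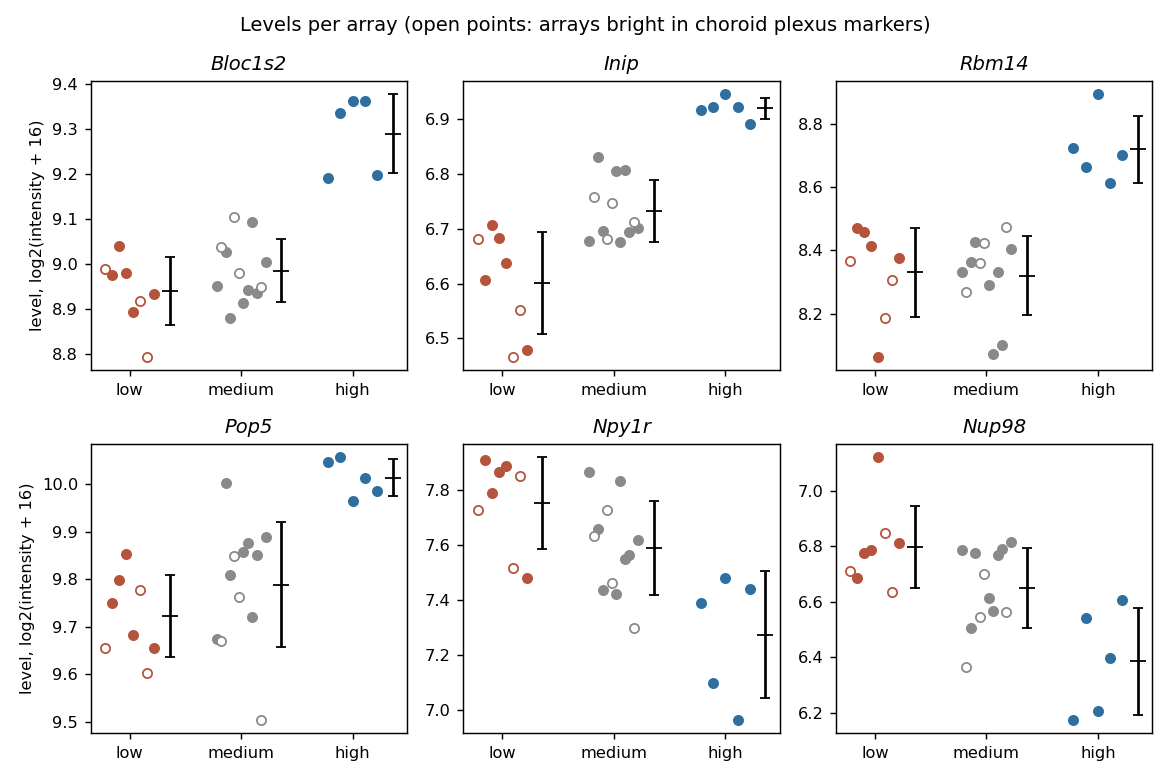
Level of 6 genes on each array, in log2(intensity + 16), for 8 low, 12 medium and 5 high mice, with the mean and SD beside the points; open points are arrays bright in choroid plexus markers. Bloc1s2, Inip, Rbm14 and Pop5 lie higher on all 5 high arrays than on any low array, Nup98 lies lower on all 5, and for Npy1r 1 high array reaches the lowest low arrays.

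The genes next in order of p did not pass the adjusted threshold, the smallest adjusted p among them being 0.13. The 15 higher and 15 lower genes with the smallest p differed by 0.21 to 0.56 in size, and their groups did not overlap for 7 of the higher and 8 of the lower genes. Since they were picked for small p, these counts describe the selection. The medium mean lay between the high and low means for 22 of the 30, a count that the same selection favours. A trend over the ranked groups was not tested.

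Rbm14, an RNA-binding coactivator of paraspeckles, was at 8.72, 8.66, 8.89, 8.61 and 8.70 in high mice and from 8.06 over 8.37 to 8.47 in low mice. The groups did not overlap, and the difference was 0.39 ± 0.07 (SE) with a limma adjusted p of 0.13. The 3 other Rbm14 probe sets differed by 0.07, 0.04 and 0.004. Pop5, a subunit of the ribonucleases P and MRP that trim transfer and ribosomal RNA precursors, was at 10.05, 10.06, 9.96, 10.01 and 9.99 against 9.60, 9.72 and 9.85 as the lowest, median and highest low array. It was again higher on every high array, by 0.29 ± 0.06 (SE).

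Elp4, a subunit of the Elongator complex that modifies wobble uridines, was at 7.03, 7.17, 7.10, 6.96 and 7.04 against 6.63, 6.71 and 6.98 in low mice. High replicate 4 lay inside the low range, and the difference was 0.32 ± 0.07 (SE). Trmt5, which methylates a guanosine next to the anticodon, was at 6.70, 6.74, 6.97, 6.88 and 6.82 against 6.34, 6.55 and 6.68, with no overlap and a difference of 0.30 ± 0.07 (SE).

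Fmr1 encodes the RNA-binding protein lost in fragile X syndrome, which restrains translation at synapses. At 1 probe set it was at 7.01, 7.62, 7.18, 7.38 and 7.33 in high mice against 6.73, 6.84 and 7.10, a difference of 0.43 ± 0.11 (SE) with 1 high array inside the low range. The 2 other Fmr1 probe sets, 1 of them brighter, differed by 0.08 ± 0.05 and -0.002 ± 0.18.

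Kdm5c, an X-linked demethylase of histone H3 linked to intellectual disability, was at 7.17, 7.40, 7.32, 7.48 and 7.32 against 6.64, 6.87 and 7.34, a difference of 0.42 ± 0.11 (SE). Low values were spread more widely and reached into the high range. Its 2 other probe sets differed by 0.08 and 0.04. Lyst, a regulator of lysosome size and trafficking, was at 9.31, 9.55, 9.37, 9.54 and 9.31 against 8.75, 9.10 and 9.16. No low array reached the high arrays, the difference was 0.39 ± 0.09 (SE), and its second probe set differed by 0.19 ± 0.07.

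Blnk, an adaptor of B cell receptor signalling that microglia also express, was at 7.15, 6.83, 7.33, 7.10 and 7.23 against 6.48, 6.64 and 6.98, a difference of 0.44 ± 0.10 (SE) with high replicate 2 inside the low range. P4ha2, a collagen prolyl hydroxylase subunit, was at 6.67, 6.70, 6.57, 6.48 and 6.34 against 6.01, 6.15 and 6.37, a difference of 0.41 ± 0.09 (SE). Only its lowest high array overlapped the low group. The remaining higher genes were Gnpnat1 of the amino sugar pathway (0.36 ± 0.09), the protein palmitoyltransferase Zdhhc14 (0.31 ± 0.08), Mnat1 of the kinase that activates cyclin-dependent kinases (0.21 ± 0.05) and the stress chaperone Hspa1b. The 5 other Zdhhc14 probe sets differed by 0.31, 0.28, 0.14, 0.02 and -0.02.

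Among the 15 lower genes, Npy1r encodes the Y1 receptor for neuropeptide Y, an inhibitory peptide of hippocampal interneurons. Its level was 7.39, 7.10, 7.48, 6.96 and 7.44 in high mice against 7.48, 7.82 and 7.91 as the lowest, median and highest low array. High replicate 3 just reached the lowest low array, and the difference was -0.48 ± 0.10 (SE) with a limma adjusted p of 0.269. The peptide and its other receptors were close to 0, with Npy at -0.07 ± 0.15, Npy2r at 0.05 ± 0.25 and Npy5r at 0.08 ± 0.10.

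Pde5a, which breaks down cyclic GMP, was at 6.19, 5.91, 5.90, 5.92 and 5.94 against 6.17, 6.35 and 6.62, a difference of -0.37 ± 0.09 (SE). High replicate 1 lay in the low range and the other 4 below it. The other tested Pde5a probe set differed by -0.09 ± 0.11. Among 16 phosphodiesterase genes measured, Pde5a was the nominally lower one, Pde10a (0.37 ± 0.14) and Pde3b (0.20 ± 0.09) were nominally higher, and the median was 0.00. Aifm3, a relative of apoptosis-inducing factor, was at 6.54, 6.33, 6.30, 6.02 and 6.20 against 6.51, 6.88 and 7.10. High replicate 1 touched the low range. The difference was -0.56 ± 0.12 (SE), and by -0.17 ± 0.11 at a brighter probe set.

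Nup98, a nuclear pore protein, was at 6.18, 6.54, 6.21, 6.40 and 6.61 in high mice against 6.64, 6.78 and 7.12 in low mice. The groups did not overlap, the difference was -0.41 ± 0.09 (SE), and the brighter Nup98 probe set differed by 0.08 ± 0.10. Parn, a ribonuclease that removes poly(A) tails, was at 6.74, 6.59, 6.77, 6.53 and 6.72 against 6.77, 6.96 and 7.17. The groups did not overlap, though the highest high and the lowest low array were level to 2 decimals, and the difference was -0.32 ± 0.08 (SE). The brighter Parn probe set differed by -0.08 ± 0.08. Slc6a15, a neuronal transporter of neutral amino acids, was at 9.75, 9.53, 9.66, 9.79 and 9.79 against 9.86, 9.94 and 10.08, a difference of -0.25 ± 0.07 (SE) without overlap.

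The remaining lower genes were Cxadr, a cell adhesion protein of tight junctions (-0.32 ± 0.08, SE), the 14-3-3 protein Ywhaq (-0.45 ± 0.11), the Golgi syntaxin Stx5a (-0.31 ± 0.08), the Ras-like Rasl12 (-0.29 ± 0.07), the co-chaperone Dnajc27 (-0.22 ± 0.06), Ammecr1l (-0.32 ± 0.08), the transcripts 2900052L18Rik (-0.32 ± 0.07) and C130071C03Rik (-0.26 ± 0.07), and Sdhd. Several of these differences were not seen at other probe sets. The 7 other Ywhaq probe sets, all brighter, differed by -0.05 to 0.12 and none was nominal. The 2 other Ammecr1l probe sets were brighter and differed by 0.11 and 0.10, the brighter Stx5a probe set by -0.05 and the dimmer C130071C03Rik one by 0.12.

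Sdhd, the membrane anchor of succinate dehydrogenase, went both ways. At probe set 1437489_x_at it was 7.20, 6.81, 6.94, 7.12 and 6.96 in high mice against 7.22, 7.32 and 7.69, all lower, with a difference of -0.39 ± 0.10 (SE). At the brighter probe set 1428235_at it was 10.12, 10.22, 10.19, 10.23 and 10.11 against 9.90, 10.01 and 10.08, all higher, with a difference of 0.17 ± 0.05 (SE). By the array's naming, an ending in _x_at marks a probe set with probes that can also match other transcripts. The probe sets picked for Rbm14, Zdhhc14, Hspa1b and Ywhaq by smallest p also had this ending. Of the 30 genes, 19 had other tested probe sets, 38 in all, of which 27 had the sign of the named one, 8 nominally so, and 11 the opposite sign, 1 nominally so.

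Several chaperone genes were nominally higher, in some lists more than in others. Cytosolic chaperones of the HSP70, HSP90 and HSP110 families fold new and damaged proteins. The list named for them also holds co-chaperones and small heat shock proteins. Of 19 measured, 8 were nominally higher and 0 lower, 14 lay above 0, and the median was 0.12, against 4.81%, 3.73%, 51.5% and 0.0037 over all genes. Chaperones, disulphide enzymes and stress regulators of the endoplasmic reticulum, where secreted and membrane proteins fold, gave 11 nominally higher and 0 lower of 27, 20 above 0 and a median of 0.10. None of these members passed the adjusted threshold.

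Hspa1b, an inducible HSP70, was at 10.80, 9.39, 9.87, 9.77 and 10.58 in high mice at its brightest probe set, against 9.02, 9.39 and 9.90 as the lowest, median and highest low array. High replicates 1 and 5 lay above the low range and the other 3 within it. The difference was 0.70 ± 0.22 (SE), and the 2 other Hspa1b probe sets differed by 0.58 ± 0.15 and 0.56 ± 0.13. Hspa1a, a nearly identical copy whose signal cannot be told from Hspa1b, differed by 0.48 ± 0.16, so that 1 signal may be counted as 2 members among the 8. Hsph1, the HSP110 that resets HSP70, was at 11.52, 11.10, 11.28, 11.24 and 11.33 against 10.79, 11.03 and 11.23, a difference of 0.25 ± 0.07 (SE). High replicate 2 lay within the low range, and a second probe set differed by the same 0.25.

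The other nominally higher members of the cytosolic list included the HSP70 proteins Hspa13 (0.17 ± 0.06), which is not itself cytosolic, and Hspa8 (0.12 ± 0.05). The rest were the co-chaperones Stip1 (0.18 ± 0.07) and Ahsa1 (0.15 ± 0.06), which serve HSP90, and the small heat shock protein Cryab (0.18 ± 0.09). Hsp90aa1 itself differed by -0.01 ± 0.05, and Hspa12a (-0.16 ± 0.09) and Hspa2 (-0.11 ± 0.07) were the lowest members. Among 26 DNAJ co-chaperones, which bring substrates to HSP70, 3 were nominally higher, Dnajb1 (0.31 ± 0.12), Dnajb4 (0.20 ± 0.08) and Dnajb11 (0.23 ± 0.10), and the median was 0.02. Without high replicate 1 none of the 3 was nominal.

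Manf, a secreted factor released under endoplasmic reticulum stress, was at 10.59, 10.08, 10.28, 9.91 and 10.17 in high mice against 9.50, 9.80 and 9.98, a difference of 0.42 ± 0.12 (SE). High replicate 4 lay within the low range and the other 4 above it. Ero1b, an oxidase that supplies disulphide bonds, was at 8.11, 8.02, 8.21, 8.10 and 8.16 against 7.73, 7.89 and 7.98, and was the member of this list without overlap, at 0.24 ± 0.07 (SE). Hspa5, the main HSP70 of this compartment, was at 12.17, 11.71, 11.90, 11.49 and 11.80 against 11.11, 11.57 and 11.74, a difference of 0.29 ± 0.12 (SE) with 2 high arrays in the low range.

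The largest differences in the list were those of Sdf2l1 (0.53 ± 0.19) and Creld2 (0.50 ± 0.17), both small secretory-pathway proteins induced by unfolded proteins. The disulphide isomerases Pdia6 (0.30 ± 0.12) and Pdia4 (0.28 ± 0.13), the stress transcription factors Xbp1 (0.23 ± 0.08) and Ddit3 (0.23 ± 0.09), and Sel1l (0.13 ± 0.05) of the degradation channel were also nominally higher. Abundant chaperones of the same compartment were not: Hsp90b1 differed by 0.01 ± 0.07, Calr by 0.01 ± 0.11 and Canx by -0.01 ± 0.05.

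High replicate 1, the only high array of batch 2, was the highest of the 5 for Hspa1b, Hsph1, Manf, Hspa5, Sdf2l1 and Creld2. The mean level of the endoplasmic reticulum list was 9.47 on that array, 9.28, 9.31, 9.17 and 9.28 on the other high arrays, and ran from 9.08 over 9.15 to 9.27 on the low arrays. Without it, 5 of 27 endoplasmic reticulum genes and 5 of 19 cytosolic chaperones were nominally higher, against a background of 4.75%, and the medians were 0.09 and 0.09. In batch 3, with 4 high arrays and 5 low, these medians were 0.11 and 0.13. Without the 3 low arrays bright in choroid plexus markers, 6 and 8 were nominally higher against a background of 2.83%.

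**Figure D3:**
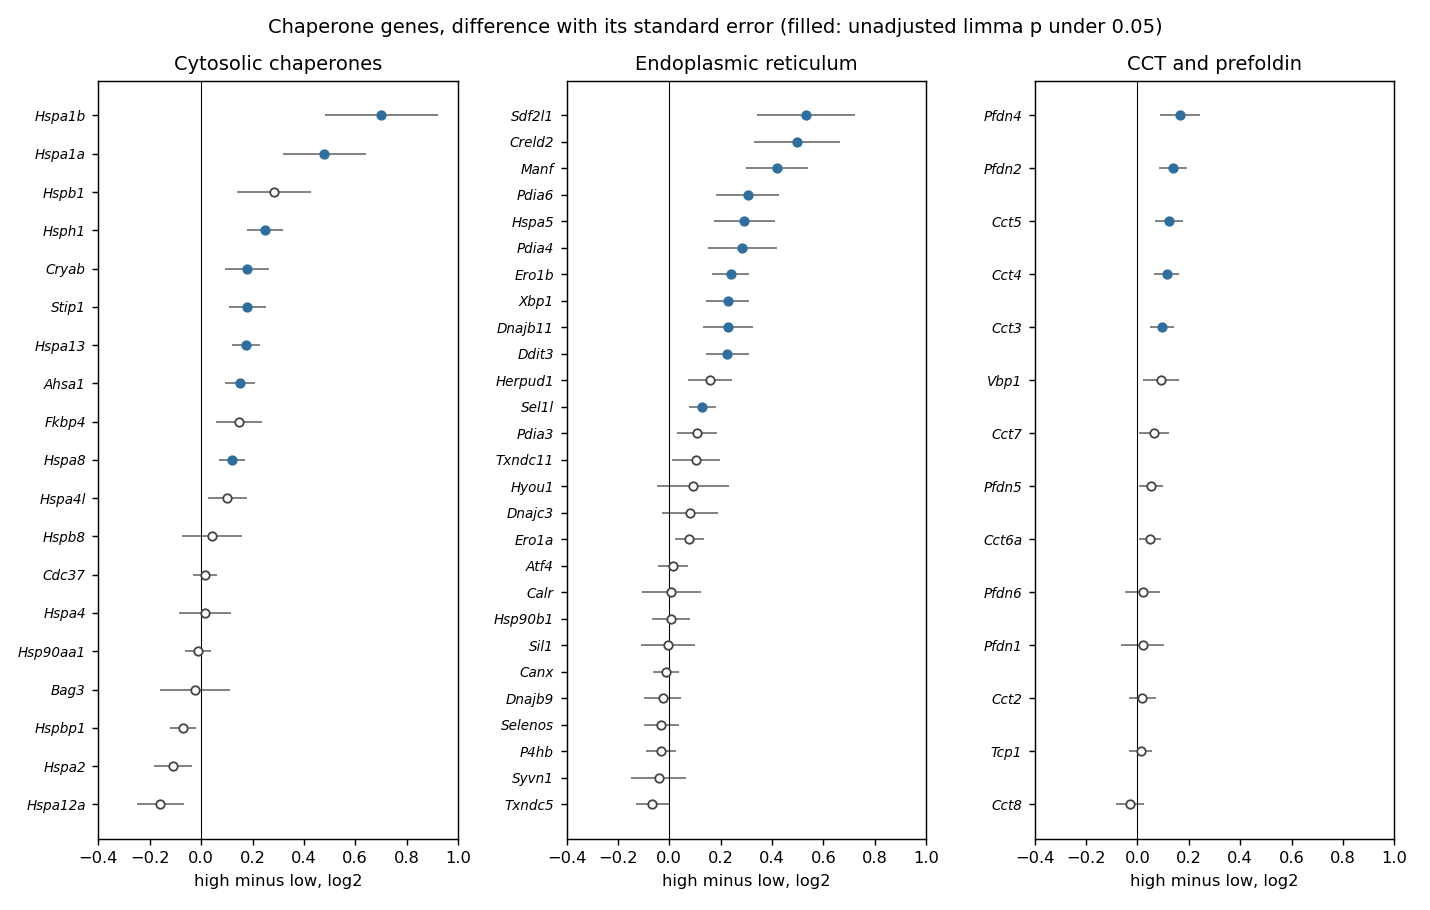
High minus low difference (horizontal, log2 scale) with its SE for each measured member of 3 chaperone lists; filled points have an unadjusted limma p under 0.05. In the cytosolic list 8 of 19 members, in the endoplasmic reticulum list 11 of 27 and in the chaperonin list 5 of 14 are filled, all to the right of 0, while members such as Hsp90aa1, Calr and Canx lie at 0.

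Promoter stretches are shown because these 2 lists are textbook targets of the heat shock and unfolded protein responses, whose factors read short paired motifs. RefSeq promoters (GRCm38.p6) were searched over the 250 bases before each transcript start. The heat shock pair was GAANNTTC or TTCNNGAA, each its own reverse complement, and the stress pair was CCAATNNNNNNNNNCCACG on either strand. Of 32851 promoters, 12.8% held a heat shock pair and 0.113% a stress pair. All 15 cytosolic chaperones matched by symbol had 17 promoters, of which 7 (41.2%) held a heat shock pair and 0 a stress pair. The 24 endoplasmic reticulum genes matched had 27 promoters, of which 9 (33.3%) held a stress pair and 0 a heat shock pair, so the 2 motifs did not overlap in these lists. A match describes letters in this window and shows no binding.

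Among the heat shock pairs, those of the gene with the largest difference, of Hsph1 and of the double pair in Hspb1 are given 5′ to 3′ on the gene's strand, with the motif in capitals. They lie at chr17:34959320-34959357 (minus strand) before Hspa1b, chr5:149636347-149636384 (minus strand) before Hsph1 and chr5:135887787-135887844 (plus strand) before Hspb1. The stretch before Hspa1a, at chr17:34972238-34972275, has the same letters as that of Hspa1b.
Hspa1b: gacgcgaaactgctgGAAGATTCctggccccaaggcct
Hsph1: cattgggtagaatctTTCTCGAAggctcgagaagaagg
Hspb1: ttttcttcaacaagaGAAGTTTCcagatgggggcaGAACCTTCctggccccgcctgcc

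The stress pairs of Creld2, Hspa5 and Calr show that genes with and without a nominal difference carry the pair. They lie at chr15:88819505-88819553 (plus strand), chr2:34772010-34772058 (plus strand) and chr8:84847060-84847108 (minus strand). Capitals mark the paired stretches, which read in reverse in Creld2 and Calr.
Creld2: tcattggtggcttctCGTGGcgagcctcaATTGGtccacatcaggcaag
Hspa5: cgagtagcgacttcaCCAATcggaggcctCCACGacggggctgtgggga
Calr: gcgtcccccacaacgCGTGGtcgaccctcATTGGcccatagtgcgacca

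Of the 6 cytosolic chaperones with a heat shock pair, 3 were nominally higher (Hspa1b, Hspa1a and Hsph1), and the differences of the 6 ran from 0.02 to 0.70 with a median of 0.27. Hspa1b and Hspa1a, which share these promoter letters and whose signals cannot be told apart, count as 2 of these genes. Of the 9 without a pair, 2 were nominally higher and the differences ran from -0.16 to 0.18 with a median of 0.01. Only 15 of the 19 measured members matched a promoter by symbol. Some of the 8 nominally higher ones did not, so their motif status is unknown and the comparison is incomplete. In the endoplasmic reticulum list, 4 of 9 genes with a stress pair (Creld2, Ero1b, Hspa5 and Pdia6) and 6 of 15 without one were nominally higher, with medians of 0.08 and 0.11. Manf and Sdf2l1 were among those whose window held no stress pair. Of the 27 measured genes of that list 24 matched a promoter, and the 11 nominally higher ones were not all classed.

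The chaperonin CCT and its helper prefoldin, which fold actin and tubulin, gave 5 nominally higher and 0 lower of 14 measured, 13 above 0 and a median of 0.06. The 5 were Pfdn2 (0.14 ± 0.05), Cct5 (0.12 ± 0.05), Cct4 (0.11 ± 0.05), Pfdn4 (0.17 ± 0.08) and Cct3 (0.10 ± 0.05). Their count was 1 without high replicate 3, 2 without high replicate 1, high replicate 2 or low replicate 2, 3 without high replicate 4 or low replicates 1, 3 or 7, and 1 without the low arrays bright in choroid plexus markers. Of 14 mitochondrial chaperones and proteases, Hspe1 (0.16 ± 0.06) was nominally higher. Of 35 proteasome subunits 2 were nominally higher, Psmb4 (0.12 ± 0.05) and Psmd14 (0.11 ± 0.05), with 27 above 0 and a median of 0.04. The 1 other tested Psmb4 probe set had the opposite sign and was not nominal.

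Mitochondrial ribosomal proteins, which build the ribosome that translates the mitochondrial genome, had 13 nominally higher and 0 lower of 76 measured genes, 63 above 0 and a median of 0.07, with single differences from -0.08 to 0.24. The mean level of the 76 genes was 8.82, 8.88, 8.87, 8.87 and 8.80 on the high arrays and ran from 8.72 over 8.77 to 8.88 on the low arrays, so all 5 high arrays lay above the low median and the groups overlapped. Mrpl19, of the large subunit, was at 8.55, 8.62, 8.63, 8.58 and 8.54 against 8.22, 8.39 and 8.46. It was the member without overlap, at 0.21 ± 0.06 (SE). Of the 2 other tested Mrpl19 probe sets, 1 had the same sign and none was nominal. Mrps31 (0.20 ± 0.07) and Mrpl9 (0.18 ± 0.06) followed.

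The mitochondrial ribosome count was 13 without low replicate 5, 13 when spike-in batch entered as a block and 11 without the low arrays bright in choroid plexus markers. It was 8 without high replicate 2 and 8 without high replicate 3. Related machinery lay closer to the background in nominal counts and medians. The share above 0 was 82.9% for mitochondrial ribosomal proteins, against 51.5% of all genes. It was 72.3% for cytosolic ribosomal proteins, 55.9% for complex I, 63.6% for complexes II to V and 63.0% for translation initiation factors. Of 47 cytosolic ribosomal proteins, 1 was nominally higher and 1 lower, with a median of 0.02. Of 34 complex I genes, 0 were nominal in either direction, with a median of 0.01. Of 44 genes of complexes II to V, 2 were nominally higher, Sdhd and Uqcr10 (0.20 ± 0.07), with a median of 0.03, and the 2 became 5 without high replicate 1, 6 without low replicate 6 and 4 without low replicate 8. Of 46 translation initiation factors, 3 were nominally higher and 1 lower, Eif4e2 (-0.20 ± 0.07), a relative of the cap-binding protein that represses translation. The 3 became 1 without high replicate 2 or high replicate 3, 5 without high replicate 5 and 0 without the choroid-bright arrays. Of the 3 other tested Eif4e2 probe sets, 1 had the same sign and none was nominal.

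RNA processing lists outside the leading genes gave small counts. Of 24 nuclear pore genes, 4 were nominally higher and 0 lower with a median of 0.06, led by Nup210 (0.30 ± 0.12), but the count was 0 without high replicate 4 and 2 without high replicate 3. Of 12 Elongator and wobble modification genes, Elp4 and Kti12 were nominally higher and Alkbh8, a wobble uridine methyltransferase, lower (-0.23 ± 0.09). Kti12, an Elongator regulator, was at 8.04, 7.97, 7.91, 7.96 and 8.00 against 7.76, 7.85 and 7.89, without overlap. Neat1, the long RNA on which paraspeckles assemble, was nominally lower at -0.35 ± 0.17, beside the higher Rbm14, in a list of 16 with a median of 0.05.

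Chromatin enzymes bear on the stated interest of the series in epigenetic regulation. Of 45 histone methyltransferases and demethylases, 7 were nominally higher and 1 lower with a median of 0.04. Kdm3a, which removes methyl groups from lysine 9 of histone H3, was at 8.79, 8.71, 8.71, 8.61 and 8.64 against 8.39, 8.49 and 8.53, without overlap, at 0.23 ± 0.07 (SE). Prmt2 (0.22 ± 0.09), Kdm1a (0.14 ± 0.05), Kdm3b, Phf8, Kmt2c and Kdm2b were the other higher ones, and Kdm4a was lower at -0.21 ± 0.08. The 7 became 4 without high replicate 1 or high replicate 4, 2 without high replicate 5 and 4 without the choroid-bright arrays.

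Of 16 histone acetyltransferases, 3 were nominally higher: Crebbp (0.18 ± 0.06), the CREB-binding protein mutated in Rubinstein-Taybi syndrome, and the nuclear receptor coactivators Ncoa1 (0.28 ± 0.09) and Ncoa2 (0.13 ± 0.06). Crebbp was at 9.33, 9.55, 9.42, 9.49 and 9.46 against 9.11, 9.26 and 9.37, with only high replicate 1 inside the low range. The list median was -0.01. Of 21 histone deacetylases and sirtuins, Hdac4 (0.25 ± 0.11) was nominally higher, and of 15 DNA methylation genes, Mbd6 (-0.24 ± 0.12) was nominally lower.

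**Figure D4:**
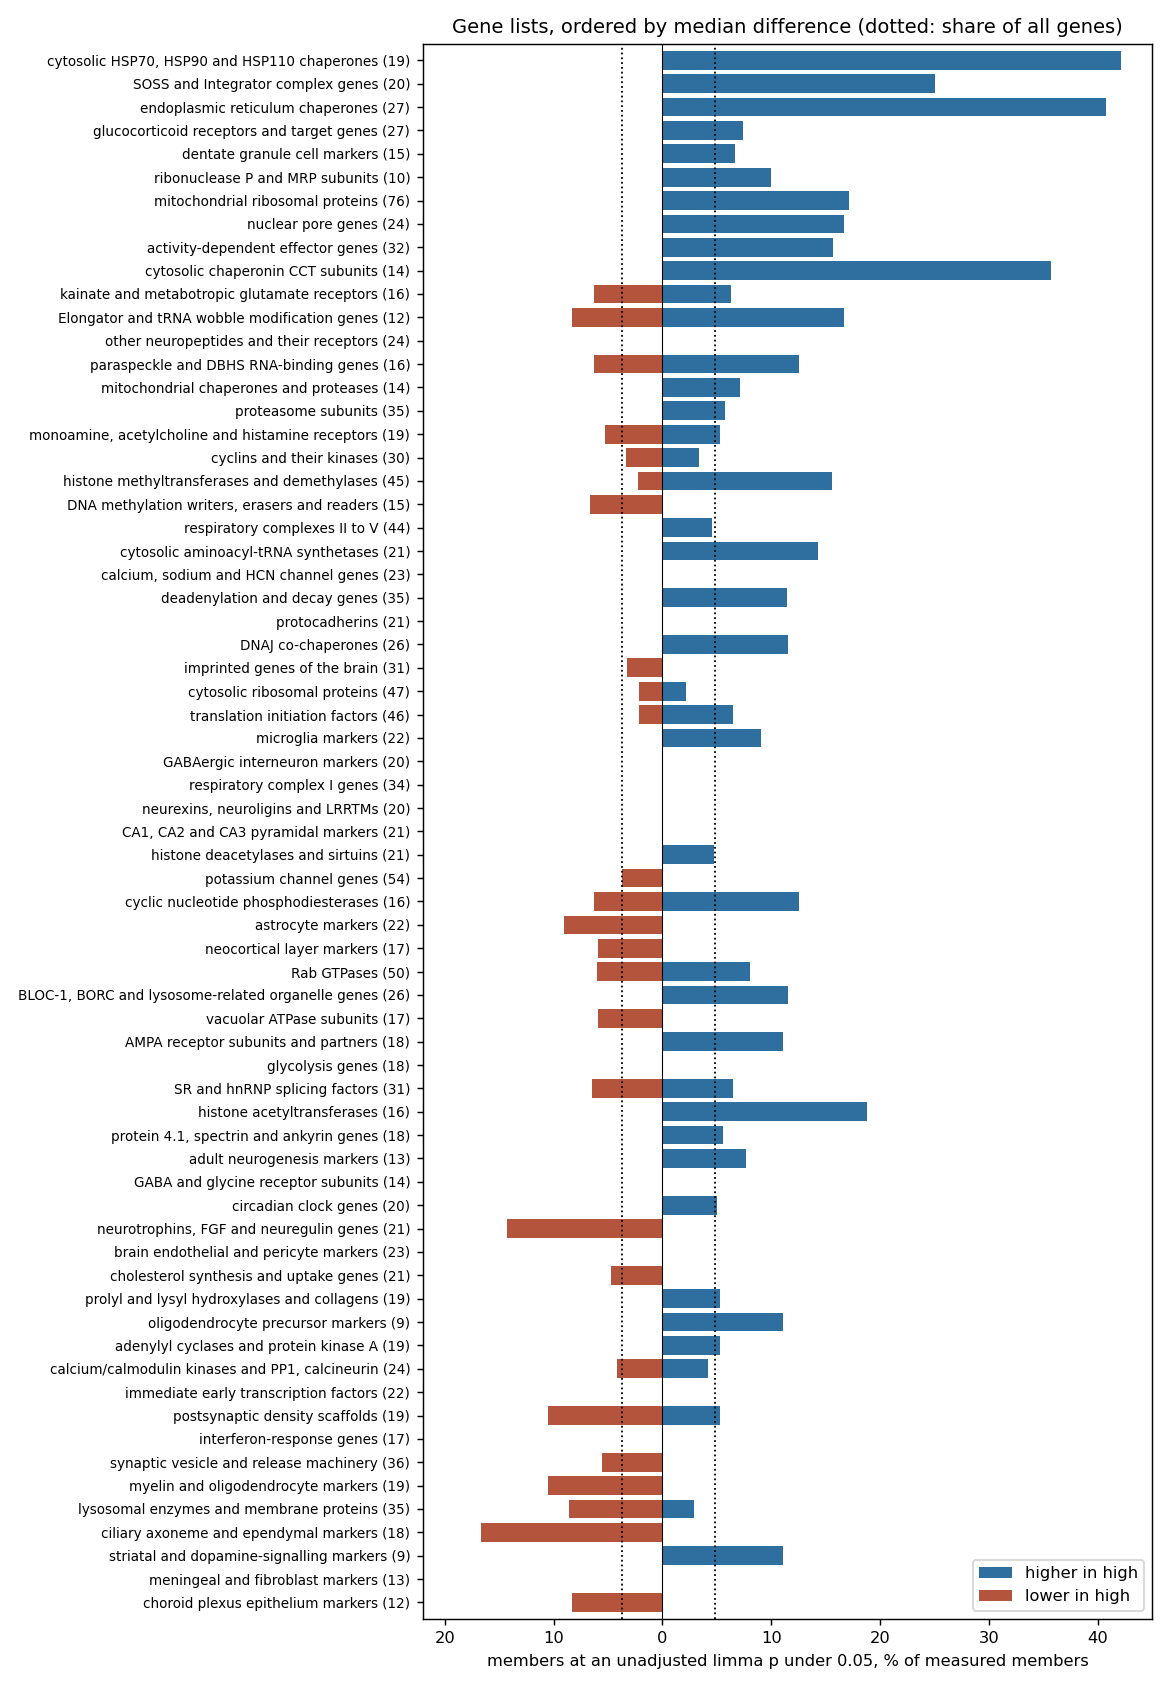
Share of measured members (number in brackets) at an unadjusted limma p under 0.05 for lists of at least 9 measured genes, ordered by median difference; blue bars to the right are higher and red bars to the left lower in high mice. Dotted lines mark the shares over all genes, 4.81% higher and 3.73% lower, and with all arrays the 3 longest blue bars belong to cytosolic, endoplasmic reticulum and CCT chaperones.

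Synaptic vesicle and release genes had 0 nominally higher and 2 lower of 36 measured, 10 above 0 and a median of -0.06. The vesicle protein Sv2a was at 9.64, 9.52, 9.73, 9.71 and 9.66 against 9.65, 9.89 and 10.04. The difference was -0.22 ± 0.09 (SE), with overlapping groups. Vamp1 differed by -0.19 ± 0.09, and its 1 other tested probe set had the opposite sign without being nominal. The mean of these 36 genes ran from 10.13 to 10.16 on the high arrays and from 10.12 to 10.28 on the low arrays, so that the high arrays were narrowly grouped inside the low range. Without the low arrays bright in choroid plexus markers the median was -0.07, with 0 nominal in either direction.

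Glutamate receptor genes were mostly within error. Of 6 NMDA receptor subunits 0 were nominal, 1 lay above 0 and the median was -0.08, with Grin2c the largest at -0.24 ± 0.14. Of 18 AMPA receptor subunits and partners, 2 were nominally higher, the trafficking scaffolds Pick1 (0.24 ± 0.09) and Grip2 (0.32 ± 0.15), and none of the nominal members was a channel subunit. Of 16 kainate and metabotropic genes, Homer1, a scaffold of metabotropic receptors, was nominally higher (0.15 ± 0.07) and the kainate subunit Grik5 lower (-0.33 ± 0.15), while 11 lay above 0 and the median was 0.06. Of 14 GABA and glycine receptor genes 0 were nominal, and the median was -0.02.

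Among 19 postsynaptic scaffolds, Baiap2, which links receptors to actin, was at 9.65, 9.63, 9.62, 9.68 and 9.63 against 9.13, 9.49 and 9.57, without overlap, at 0.21 ± 0.08 (SE). Cnksr2 (-0.23 ± 0.09) and Iqsec2 (-0.22 ± 0.10) were nominally lower. Of 21 neurotrophin, FGF and neuregulin genes, 0 were nominally higher and 3 lower. Fgfr2, a growth factor receptor of glia, was at 7.96, 7.90, 7.76, 7.66 and 7.95 against 7.99, 8.17 and 8.45, all lower, at -0.35 ± 0.11 (SE). Fgfr3, mainly of astrocytes, differed by -0.20 ± 0.07 and Nrg2 by -0.44 ± 0.18. Bdnf differed by 0.18 ± 0.09 and was not nominal.

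Genes that neuronal activity induces were read as 2 lists, whose difference was not tested. Of 22 immediate early transcription factors 0 were nominal and the median was -0.05, with Egr1 at -0.35 ± 0.26 and Junb at -0.24 ± 0.15. Of 32 activity-dependent effector genes, 5 were nominally higher and 0 lower with a median of 0.06. Inhba, a subunit of activin, was at 7.71, 7.31, 7.08, 7.11 and 7.28 against 5.65, 6.60 and 7.32, a difference of 0.69 ± 0.22 (SE). Its low values spread over a wide range and the upper end overlapped the high arrays. Spry4 (0.31 ± 0.10), Crem (0.26 ± 0.10), Rheb (0.21 ± 0.09) and Homer1 followed. The 5 became 3 without high replicate 4 and 1 without the low arrays bright in choroid plexus markers.

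Of 27 glucocorticoid receptor and target genes, 2 were nominally higher, the transcription factor Klf9 (0.24 ± 0.09) and Fam107a (0.16 ± 0.07), 22 lay above 0 and the median was 0.10. Klf9 was at 11.86, 11.91, 12.08, 12.14 and 12.06 against 11.60, 11.75 and 11.93, with high replicates 1 and 2 in the low range. The count was 6 with a median of 0.16 without low replicate 5, and 1 with a median of 0.05 without the low arrays bright in choroid plexus markers. Tsc22d3, a classical target, differed by 0.61 ± 0.23 at 1 probe set, with high replicate 1 at 10.08, above the other high arrays at 9.37 to 9.54, and by 0.29 ± 0.20 at its brightest probe set. The remaining tested Tsc22d3 probe set had the opposite sign and was not nominal. Receptor Nr3c1 differed by -0.12 ± 0.11.

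Lysosomal genes were below 0 as a list. Of 35 lysosomal enzymes and membrane proteins 8 lay above 0, 1 was nominally higher and 3 lower, and the median was -0.07. Tpp1, a lysosomal peptidase, was at 9.90, 9.86, 9.77, 9.82 and 9.74 against 9.90, 10.04 and 10.17, a difference of -0.20 ± 0.06 (SE) with its highest high array level with the lowest low array. Naglu (-0.30 ± 0.13) and Cln3 (-0.18 ± 0.08) were also lower and Lipa (0.18 ± 0.08) higher. Without the 3 low arrays bright in choroid plexus markers, 19 of 35 lay above 0, 1 was nominal in each direction and the median was 0.01.

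Choroid plexus epithelium, which secretes cerebrospinal fluid beside the hippocampus, gave the largest differences. All 12 measured markers were below 0 with a median of -1.07, of which 1, Msx1 (-0.47 ± 0.20), was nominal. Ttr, the transthyretin of this epithelium, was at 11.08, 8.80, 10.93, 8.50 and 10.23 against 7.72, 12.09 and 13.40, a difference of -1.50 ± 0.97 (SE), so the groups overlapped fully. The mean of the 12 markers was 6.46, 6.64, 6.50, 6.03 and 6.51 on the high arrays and 9.07, 8.84 and 9.40 on low replicates 1, 6 and 7, while the other 5 low arrays ran from 5.80 to 7.12. Without those 3 arrays the median was -0.06, 2 of 12 lay above 0 and 1 was nominally lower. Without low replicate 5, whose mean of 5.80 was the lowest, 6 were nominally lower.

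The same 3 arrays moved with further lists, and their part in those results was not tested beyond leaving them out. Of 18 ciliary and ependymal genes 2 lay above 0, 3 were nominally lower, Crocc (-0.30 ± 0.09), Ift88 (-0.22 ± 0.07) and Cfap126 (-0.53 ± 0.22), and the median was -0.09. Without the 3 arrays it was 0.04, with 2 nominal in each direction. Of 13 meningeal genes 1 lay above 0 and 0 were nominal, and the median of -0.16 became -0.08. Several of the largest lower genes by size shared the pattern: Clic6, a choroid plexus chloride channel protein, went from -1.25 to -0.36, Steap2 from -0.61 to -0.20 and Zfp185 from -0.67 to -0.27.

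Zfp958 (-0.76 ± 0.21), Tspan32 (-0.89 ± 0.35), Pmf1 (-0.80 ± 0.33), Elovl7 (-0.71 ± 0.21) and Lce1i (-0.61 ± 0.17), also among the largest lower genes, were at -0.77, -1.06, -0.97, -0.46 and -0.49 without those arrays. Elovl7, which elongates fatty acids, was at 6.54, 6.03, 6.52, 6.27 and 6.42 against 6.56, 7.06 and 7.72, without overlap. Tspan32 was spread widely among the high mice, at 4.86, 5.48, 6.25, 4.87 and 6.30 against 5.88, 6.48 and 7.13. Of the largest higher genes not yet described, Xdh, the xanthine dehydrogenase of purine breakdown, differed by 0.53 ± 0.18 and Zfp651 by 0.50 ± 0.18. The 1 other tested Zfp651 probe set had the opposite sign and was not nominal.

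**Figure D5:**
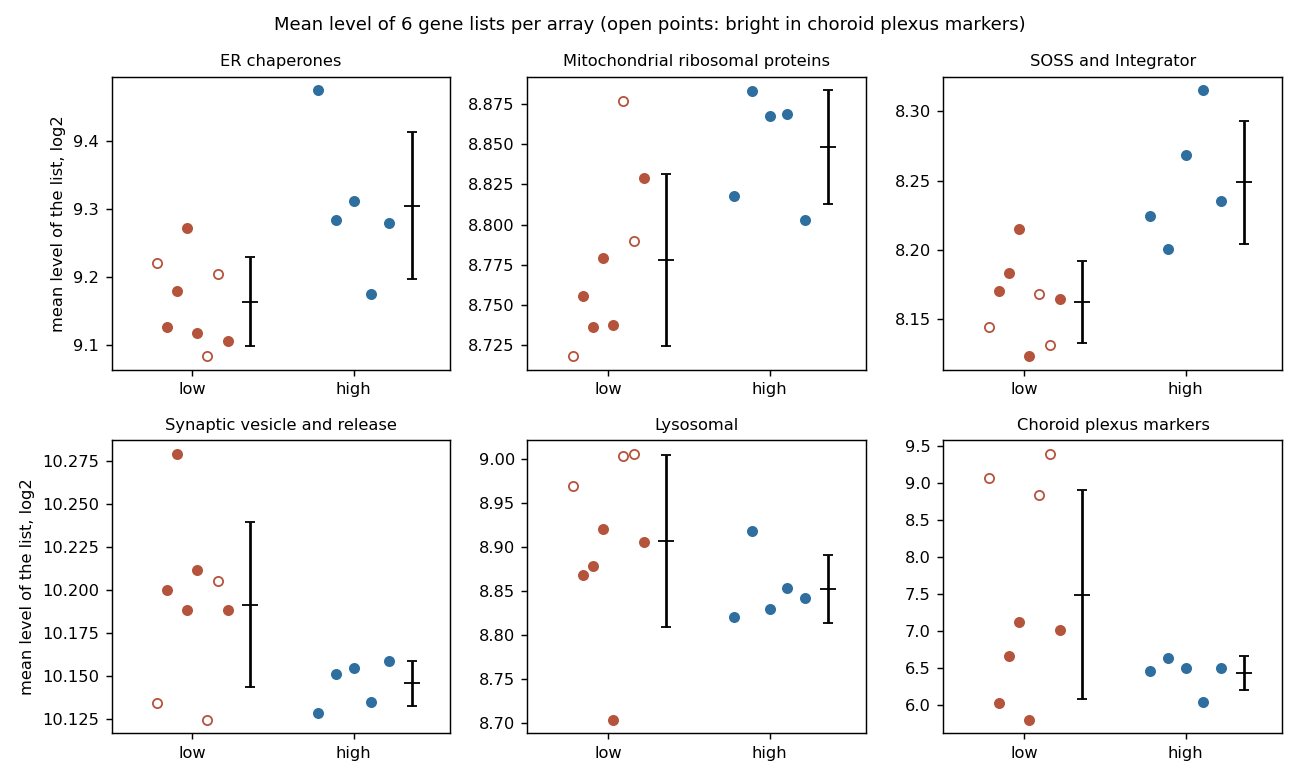
Mean level of 6 gene lists on each of the 8 low and 5 high arrays, in log2(intensity + 16), with the group mean and SD; open points are the 3 low arrays bright in choroid plexus markers. The open points are at the top of the choroid plexus and lysosomal panels, high replicate 1 is the highest array of the endoplasmic reticulum panel, and low replicate 5 is the lowest of the lysosomal and choroid plexus panels.

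Markers of the hippocampal cell types themselves gave few nominal members. Of 15 dentate granule cell markers 10 lay above 0 with a median of 0.09, and Npnt was nominal (0.30 ± 0.11). Of 21 pyramidal cell markers and of 20 interneuron markers 0 were nominal, with medians of 0.00 and 0.01. Of 13 neurogenesis markers, Sox4 was nominally higher (0.11 ± 0.05). Of the 3 other tested Sox4 probe sets, 1 had the same sign and none was nominal. Of 22 astrocyte markers, the serine transporter Slc7a10 (-0.38 ± 0.12) and Fgfr3 were nominally lower and the median was 0.00.

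Of 19 myelin and oligodendrocyte markers 5 lay above 0, Opalin (-0.38 ± 0.17) and Aspa (-0.29 ± 0.13) were nominally lower and the median was -0.06. Without the low arrays bright in choroid plexus markers 11 of 19 lay above 0 and 0 were nominal. Of 22 microglia markers, Blnk and Trem2 were nominally higher and the median was 0.02. Trem2, a lipid-sensing receptor of microglia, was at 6.43, 6.31, 6.17, 6.54 and 6.42 against 5.44, 5.90 and 6.05. These groups did not overlap, at 0.55 ± 0.26 (SE), but the medium arrays ran from 4.54 to 6.50. The low mean of 5.83 lay near the brightness cut of 5.74 for testing. The Trem2 partner Tyrobp differed by 0.19 ± 0.10. Of 23 endothelial and pericyte markers 0 were nominal.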

How the data were processed

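RNA from the hippocampus was labelled with biotin and hybridised to 1 Affymetrix mouse expression array per mouse. The authors' deposited values are linear intensities of 45101 probe sets, with a range of 0.0112 to 13549. Partek and RMA appear in the submitters' processing notes, with no version; which step produced the deposited numbers is not stated there.

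Intensities were quantile-normalized over 41 arrays and put on a log2(intensity + 16) scale. After removal of 64 array controls, the 22519 probe sets at or above the median brightness were tested. Low, medium and high arrays, 25 in all, shared 1 fit with limma 3.58.1 in R 4.3.3, with Benjamini-Hochberg adjustment. Lists used the brightest probe set with 1 symbol of each gene. The labels name separate mice but no litter or cage. Symbols came from the platform annotation, 34945 probe sets having 1, 932 several and 9160 none.

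Named were called probe sets, the 15 higher and 15 lower genes of smallest p, the 8 and 8 largest nominal differences, up to 3 leading members of each list, and members of chaperone, choroid plexus and neuropeptide Y lists, with other probe sets of called genes. Members named beyond this were chosen after their values were seen. The contrast, lists and rules were chosen with earlier results of these data known. The fit was tested on simulated data. Alternatives covered filter, normalization, offset, variance model, arrays, batch and choroid terms, the replicate number as a block, and each array left out.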

Additional observations from a re-analysis of the deposited data

Results flagged for a closer look

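By Dixon's criterion, single arrays stood apart from the rest of their group in 29 of 332 groups of values, where chance gives about 5%. Low replicate 5, whose median intensity of 22.38 was the lowest of the 41 arrays, was the highest low array for Nup98 (7.12), Pde10a (9.32) and Npy (10.36), and the lowest for Cxadr (5.48), Zfp651 (5.21), Pick1 (6.72), Ints5 (9.05) and the mean of the lysosomal list (8.70). High replicate 1, the 1 high array of batch 2, was the highest high array for Pde5a (6.19) and both Tsc22d3 probe sets given above (10.08 and 10.33). It was also the highest for Hsp90b1 (11.20) and the mean of the dentate granule list (8.35). It was the lowest for the oligodendrocyte genes Opalin (7.45) and Aspa (7.61).

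Other high arrays stood apart singly. High replicate 2 was lowest for Zfp185 (4.68) and highest for Pde3b (8.14), and high replicate 3 was lowest for Steap2 (5.65). High replicate 4 was lowest for Cln3 (5.87) and for the choroid plexus mean (6.03), and highest for another Inip probe set (7.90) and Hspa12a (9.21). High replicate 5 was highest for Prmt2 (10.32) and lowest for Npy (9.41). Among low arrays, replicate 8 was highest for Rheb (11.72) and Cct4 (10.97) and lowest for Calr (10.93), replicate 3 was highest for Fgfr3 (9.57) and replicate 2 lowest for Mnat1 (7.31).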

How the results depend on the processing

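The count of 2 called probe sets was also 2 with offsets of 1 and 50, with spike-in batches as blocks, and without each high and low array in turn (2 to 2). It was 3 with array weights or with no brightness filter. It was 1 with 1 probe set per gene, in the brightest 25% of probe sets, with all 41 arrays fitted and with a variance trend and robust fit; Bloc1s2 kept its call in these, where Inip lost it or the called probe set was not in the fit. It was 4 with the choroid plexus level as a covariate, 2 higher and 2 lower. It was 0 in limma fits of batch 3 alone, of the high and low arrays only, after median centring, without normalization, and without choroid-bright arrays, with 1741, 2000, 1709, 289 and 1287 probe sets at an unadjusted p under 0.05, and 0 by the exact rank-sum test, with 2051. With the replicate number as a block it was 0 in limma, with 2102 at an unadjusted p under 0.05 and an adjusted p of 0.369 for Bloc1s2 and Inip. Deviations of same-numbered high and low arrays correlated at -0.1 to 0.00917, so the numbers were not taken to pair mice. Over all 30 alternatives Bloc1s2 lay between 0.315 and 0.417 and the called Inip probe set, where it was in the fit, between 0.214 and 0.373. Apart from the fits that did not hold that probe set, the cause of a changed count was not tested.

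Of 158 gene results, 8 turned sign under some alternative, none of them called. Without choroid-bright arrays the values were -0.018 for the weakest Inip probe set, -0.01 for a second Nup98 probe set, -0.003 for a second Kdm5c probe set, 0.006 for Canx and -0.0 for Hsp90b1. Without normalization they were -0.042 for that Inip probe set, -0.052 for Kdm5c and -0.012 for Hsp90b1. With the choroid covariate they were -0.018 for Inip and 0.01 for Canx. After median centring they were 0.005 for Npy, 0.076 for Canx and 0.033 for Hsp90aa1. In batch 3 they were 0.008 for Canx, -0.06 for Hsp90b1 and -0.022 for Calr. Array weights gave 0.006 for Hsp90aa1 and -0.029 for Calr, and the replicate block gave 0.01 and -0.029. With each array left out, the ranges were -0.119 to 0.033 for Npy, where low replicate 5 turned the sign, -0.017 to 0.07 for Kdm5c, -0.038 to 0.015 for Canx, -0.052 to 0.023 for Hsp90aa1, -0.068 to 0.044 for Hsp90b1 and -0.092 to 0.088 for Calr. Of 24 lists with a median of at least 0.05 in size, 8 turned sign under some setting. The median over all probe sets was -0.061 without normalization, 0.041 after median centring and 0.004 to 0.006 otherwise.

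With 5 high and 8 low arrays the number of mice limits precision, and the median SE over genes was 0.086. Bulk tissue does not separate cell numbers from RNA per cell, and the array reads probe sets whose annotation can be old.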

Other observations

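Gene groups with few nominal members complete the comparison. Of 54 potassium channel genes, 0 were nominally higher and 2 lower, Kcnj11 (-0.21 ± 0.09, SE) and Kcnj16 (-0.17 ± 0.07), and the median was 0.00. Of 23 calcium, sodium and HCN channel genes 0 were nominal. Of 50 Rab GTPases, the switches of vesicle traffic, 4 were nominally higher and 3 lower, among them Rab7 of late endosomes (0.14 ± 0.05) and Rab24 (-0.22 ± 0.07). The 4 became 1 without high replicate 1, high replicate 3, low replicate 6 or low replicate 7, 2 without high replicate 5 or low replicates 1, 2 or 8, and 0 without the choroid-bright arrays. The 3 lower became 6 without low replicate 5 and 5 without low replicate 7. Of 17 vacuolar ATPase subunits, which acidify lysosomes and vesicles, 1 was nominal. Atp6v1g1 was at 10.57, 10.53, 10.46, 10.47 and 10.54 in high mice against 10.57, 10.64 and 10.73 as the lowest, median and highest low array. Its groups met without overlapping, at -0.14 ± 0.05 (SE). The 1 other tested Atp6v1g1 probe set had the opposite sign and was not nominal.

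Of 20 clock genes, whose levels follow the hour of the day, 1 was nominal, the kinase Csnk1d (0.24 ± 0.08). That value came from a probe set ending in _x_at. None of the 4 other tested Csnk1d probe sets had its sign, and none was nominal. Per1 differed by -0.19 ± 0.10. Of 17 interferon-response genes 0 were nominal, 5 lay above 0 and the median was -0.06. Of 31 imprinted genes 1 was nominally lower, and Igf2, a growth factor of meninges and choroid plexus, differed by -0.80 ± 0.42 without being nominal. Without the choroid-bright arrays Igf2 differed by -0.18, and 0 of the 31 were nominal in either direction. Of 35 deadenylation and decay genes 4 were nominally higher and 0 lower, and the 4 became 2 without high replicate 3, high replicate 5 or low replicate 5, and 6 without low replicate 6. Of 21 cytosolic aminoacyl-tRNA synthetase genes 3 were nominally higher, among them the scaffold gene Aimp1 (0.15 ± 0.05), whose groups did not overlap. The 3 became 1 without high replicate 2, high replicate 4 or low replicates 1, 5 or 7, and 1 without the choroid-bright arrays. None of the genes named here passed the adjusted threshold.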
